A study of Homo sapiens with 6 samples.

Results

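The monocarboxylate transporters of the SLC16 family were followed in U251, an established line of human glioma cells, 24 h after 6-shogaol was added or withheld. The genes described are the rows of the deposited expression table named SLC16A1, SLC16A3, SLC16A4, SLC16A6, SLC16A7, SLC16A9, SLC16A10 and SLC16A14, together with BSG, that is 9 of 60612 genes. They were chosen by their symbols and selected on the 6-shogaol against control FPKM values of these same libraries, so every difference between the groups given for them is a description and supports nothing further. All 9 passed the filter on low counts that left 19279 genes. The study had 2 groups of 3 RNA sequencing libraries. Controls were U251 cells labelled wild type and kept without the compound, and treated cells were the same line exposed to 6-shogaol, a pungent enone of dried ginger, at a dose of 60 whose unit the labels print as "μm", taken here as micromolar. Both groups were sampled at 24 h. Nothing in the labels says that replicates were grown separately, and a p-value here may therefore rest on technical spread alone.

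SLC16 proteins carry small organic acids and related molecules across membranes. The best known of them, MCT1 (SLC16A1), MCT2 (SLC16A7), MCT3 (SLC16A8) and MCT4 (SLC16A3), move lactate, pyruvate and ketone bodies together with a proton, so that they set how a glycolytic cell disposes of lactic acid. MCT1 and MCT4 are brought to the cell surface mainly by basigin (BSG, CD147), a single-span glycoprotein of the immunoglobulin family, whereas MCT2 pairs with embigin (EMB). Other members carry aromatic amino acids, carnitine or creatine, and some have no well-defined substrate. In glioma, MCT4 is known as a lactate exporter of hypoxic cells and MCT1 as a carrier for lactate in either direction.

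The sequence before a gene's start is shown for 4 of these genes, to set 3 that rose (SLC16A3, SLC16A9 and SLC16A14) beside the partner BSG, which did not pass. RefSeq (GRCh38.p14) start sites were matched for 7 of the 9 genes, at 14 starts, and none was matched for SLC16A1 and SLC16A6. For each start the 250 bases before it were searched on both strands for ACGTG or GCGTG (the core of a hypoxia response element), CACGTG (an E-box, which contains that core), TGATGNAA (an ATF4 composite site) and TGACNNNGC (an antioxidant response core). Each stretch is printed 5′ to 3′ without the bases that lie in annotated exons, and capitals mark every match.
SLC16A3, chr17:82228792-82229031, plus strand: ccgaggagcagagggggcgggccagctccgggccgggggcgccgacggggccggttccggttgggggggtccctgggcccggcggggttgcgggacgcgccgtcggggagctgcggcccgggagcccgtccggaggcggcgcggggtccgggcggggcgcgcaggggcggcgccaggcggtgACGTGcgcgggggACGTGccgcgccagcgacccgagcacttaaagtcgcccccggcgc
SLC16A9, chr10:59710080-59710329, minus strand: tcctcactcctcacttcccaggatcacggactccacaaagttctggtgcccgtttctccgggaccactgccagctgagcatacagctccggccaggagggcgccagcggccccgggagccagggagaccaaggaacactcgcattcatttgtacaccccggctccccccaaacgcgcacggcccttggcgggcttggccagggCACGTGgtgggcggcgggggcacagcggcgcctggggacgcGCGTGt
SLC16A14, chr2:230069000-230069174, minus strand: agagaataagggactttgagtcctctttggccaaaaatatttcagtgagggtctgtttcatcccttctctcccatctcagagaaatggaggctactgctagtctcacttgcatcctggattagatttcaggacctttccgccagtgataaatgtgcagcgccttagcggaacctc
BSG, chr19:572346-572564, plus strand: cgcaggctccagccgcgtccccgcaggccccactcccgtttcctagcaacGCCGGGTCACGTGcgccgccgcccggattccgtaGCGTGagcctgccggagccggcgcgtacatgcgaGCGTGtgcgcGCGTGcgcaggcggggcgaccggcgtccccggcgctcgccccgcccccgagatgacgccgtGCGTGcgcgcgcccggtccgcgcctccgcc
The start of SLC16A3 at position 82229042 on chromosome 17 had 2 ACGTG cores, 68 and 55 bases before it. At the start of SLC16A9 at position 59710079 on chromosome 10 stood 1 E-box, 47 bases before it, and a GCGTG core 6 bases before it. The SLC16A14 window held none of these motifs. Before the BSG start at position 572596 on chromosome 19 the hypoxia core stood in 5 places, 1 of them inside an E-box 193 bases before the start that overlapped an antioxidant core. Over all 35116 such windows, 43.2% held the hypoxia core, 6.34% the E-box, 3.14% the ATF4 site and 10.9% the antioxidant core. Of the 14 windows before starts of the matched genes, 7 held the hypoxia core (before starts of BSG, SLC16A10, SLC16A3 and SLC16A9), 2 the E-box, 2 the antioxidant core and 0 the ATF4 site. These 7 are not all separate promoters. The 2 SLC16A9 windows overlap and share 1 GCGTG site, which counts for both. The SLC16A3 windows before 82234899 and 82235774, also among the 7, lie wholly in exons of SLC16A3. The windows printed for SLC16A3, SLC16A9 and BSG were picked because they hold matches. The SLC16A3 starts at 82228435 and 82232232 and the BSG start at 571283 had none of the 4 motifs before them, nor had any matched start of SLC16A4, SLC16A7 or SLC16A14. These matches are letters in a sequence, and no binding was measured here.

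Libraries held 43516840 to 60018999 counts. The library 6-shogaol replicate 1 stood apart on principal component 2 (-61.8, with the remaining 5 from -22.6 to 33.9). Of the 8 glial and glioma markers, VIM stood between 941 and 1604 FPKM, NES between 81.3 and 117 and SOX2 between 81.4 and 110. Over the 6 libraries CD44 averaged 22.2, S100B 0.290, AQP4 0.0406 and OLIG2 0.0237 FPKM. GFAP fell from 2.03 to 0.664 FPKM on average and NES from 116 to 88.4 (edgeR adjusted p = 0.00655 and 0.0484). Of the 8 markers 7 were tested, and edgeR called 0 higher and 2 lower, against 1.67% and 1.71% of all tested genes. CD44 was higher without overlap, from 20.1 to 24.3 FPKM on average (log2 fold change 0.25, edgeR adjusted p = 0.120). Without overlap 3 were lower, and in 3 the groups overlapped, among them VIM (log2 fold change 0.05). The immune markers CD3E and AIF1 had no count in any library. The summed level of the 4 immune markers, carried by CD68, was 4.91 to 5.73 FPKM in controls and 6.27 to 11.1 FPKM with 6-shogaol, and that of the 3 endothelial markers 0.348 to 0.376 and 0.0707 to 0.133 FPKM. Among the endothelial markers CDH5 fell (edgeR adjusted p = 0.0192). Their part in the results below was not tested.

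Per length, the 9 genes described were dominated by few. FPKM (fragments scaled to length and library size) was used to compare levels between genes. The length used for each gene is not given in the sources used here, and the order depends on it. In CPM (counts scaled to library size, without length) SLC16A1 averaged 373 in controls and 397 with 6-shogaol. SLC16A3 averaged 307 in controls and 465 with 6-shogaol, so that by CPM it stood above SLC16A1 in treated libraries. In controls BSG had the highest mean level of the 9 genes, 131 ± 4.50 FPKM (mean ± SD, n = 3, as for all values in this form), followed by SLC16A1 at 60.8 ± 5.69, SLC16A3 at 28.6 ± 4.58, SLC16A9 at 4.09 ± 0.146 and SLC16A14 at 1.64 ± 0.0777 FPKM. The libraries of each of these 5 genes lay wholly above those of the next. Below 1 FPKM came SLC16A4 (0.448 ± 0.162), SLC16A7 (0.333 ± 0.0112), SLC16A6 (0.291 ± 0.0787) and SLC16A10 (0.186 ± 0.0257). SLC16A4 and SLC16A7, and SLC16A7 and SLC16A6, overlapped in their libraries and could not be ordered. With 6-shogaol the first 5 places were the same, but SLC16A6 stood at rank 6, SLC16A7 at rank 7 and SLC16A4 at rank 8, with no overlap between neighbours in the order.

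**Figure D1:**
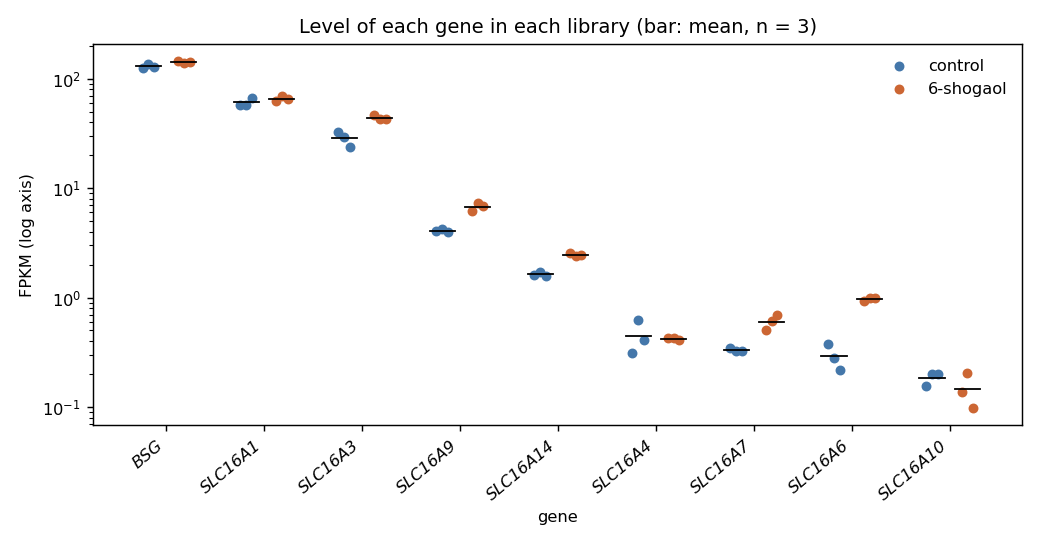
FPKM (log axis) of SLC16A1, SLC16A3, SLC16A4, SLC16A6, SLC16A7, SLC16A9, SLC16A10, SLC16A14 and BSG in each library, 3 controls and 3 treated with 6-shogaol, with bars at the group means. Treated libraries lay above all controls for BSG, SLC16A3, SLC16A9, SLC16A14, SLC16A7 and SLC16A6, and the groups overlapped for SLC16A1, SLC16A4 and SLC16A10.

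Of the 9 genes, 5 rose with 6-shogaol and 0 fell, against 3.38% of all tested genes called in either direction, 1.67% higher and 1.71% lower (edgeR's quasi-likelihood test with Benjamini-Hochberg adjustment over all 19279 genes, threshold 0.05). The 5 were SLC16A3, SLC16A6, SLC16A7, SLC16A9 and SLC16A14. The groups did not overlap in 6 of the 9 genes, all higher with 6-shogaol, against 14.0% of tested genes higher without overlap. The median log2 fold change was 0.56 over the 9 genes and -5.32e-05 over all tested genes. Since the genes were picked with this contrast known, nothing is read from these shares. In a culture measured in bulk, a change in the number of cells with a transcript and a change in the transcript per cell cannot be told apart. Leaving out 1 library ended most of these calls: 1, 0 and 0 of the 9 genes passed without control replicate 1, 2 or 3, and 4, 0 and 0 without 6-shogaol replicate 1, 2 or 3. With the replicate number as a block, 0 passed.

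Among the proton-linked lactate carriers the 2 abundant genes differed in what they showed. SLC16A3 (ENSG00000141526, chromosome 17, 82228397 to 82261129 in GRCh38), the gene of the lactate exporter MCT4, stood at 32.8, 29.4 and 23.7 FPKM in control replicates 1, 2 and 3 and at 46.5, 42.8 and 43.0 FPKM with 6-shogaol. Every treated library lay above every control, and control replicate 3 was the lowest. SLC16A3 rose 1.52-fold (log2 fold change 0.60, SE 0.12, edgeR adjusted p = 0.0474). The call of SLC16A3 was lost in each of the 6 fits without 1 library (edgeR adjusted p from 0.0616 to 0.150), in which its log2 fold change ran from 0.48 to 0.71. SLC16A3 shares 5.36% of its exonic length with CSNK1D on the other strand, a kinase gene that had a log2 fold change of -0.24, and whether strand was used in counting is not given in the sources used here.

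SLC16A1 (ENSG00000155380, chromosome 1, 112911847 to 112956196), the gene of the widely expressed carrier MCT1, stood at 57.6, 57.5 and 67.4 FPKM in controls and at 62.1, 69.7 and 65.2 FPKM with 6-shogaol. Control replicate 3 lay within the treated libraries. The log2 fold change was 0.09 with a 95% interval of -0.12 to 0.29 (edgeR adjusted p = 0.627). SLC16A1-AS1, a divergent antisense RNA that covers 3.29% of the SLC16A1 exonic length, was at 0.650, 0.490 and 0.569 FPKM in controls and at 0.502, 0.544 and 0.658 FPKM with 6-shogaol. The processed pseudogene SLC16A1P1 had no count in any library.

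The ratio of SLC16A3 to SLC16A1, in FPKM within each library, was 0.569, 0.511 and 0.352 in controls and 0.749, 0.614 and 0.660 with 6-shogaol. The treated libraries thus had the higher ratios without overlap, with means of 0.477 ± 0.112 and 0.675 ± 0.0687. Summed over the 8 SLC16 genes described, the level was 97.3, 94.3 and 97.8 FPKM in controls and 119.4, 124 and 119.8 FPKM with 6-shogaol. SLC16A1 made up 63.0% ± 5.15 of that sum in controls and 54.1% ± 2.01 with 6-shogaol, and SLC16A3 29.7% ± 4.90 and 36.4% ± 2.33. These sums and ratios come from the contrast used to choose the genes and were given no test. Their sizes, and those of the shares, also depend on the gene lengths behind FPKM.

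SLC16A7 (ENSG00000118596, chromosome 12, 59596029 to 59789855) encodes MCT2, a carrier with high affinity for pyruvate and lactate that is best known from neurons. Its level was 0.346, 0.326 and 0.327 FPKM in controls and 0.501, 0.614 and 0.697 FPKM with 6-shogaol. The 3 controls were close together, and the treated libraries lay above them but further apart. SLC16A7 rose 1.79-fold, the largest rise among members with a mean of at least 5 CPM (counts scaled to library size; log2 fold change 0.84, SE 0.16, edgeR adjusted p = 0.0411). EMB, its embigin partner, had no count in any library. The genes whose log2 CPM, centred on its mean, ran closest to that of SLC16A7 over the 6 libraries were BRIP1, C18orf32 and FBXL13, with root-mean-square differences of 0.0691, 0.0694 and 0.0786 among 11722 candidates.

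BSG (ENSG00000172270, chromosome 19, 571277 to 583493), the partner of MCT1 and MCT4, stood at 127, 136 and 130 FPKM in controls and at 145, 139 and 142 FPKM with 6-shogaol. The treated libraries lay just above the controls, yet BSG did not pass (log2 fold change 0.09, 95% interval -0.04 to 0.22, edgeR adjusted p = 0.400). It shares 3.69% of its exonic length with an antisense transcript. BSG amounted to 1.46 ± 0.0864 times the summed FPKM of SLC16A1 and SLC16A3 in controls and to 1.29 ± 0.0496 times with 6-shogaol. Per library the ratio was 1.40, 1.56 and 1.42 in controls and 1.33, 1.24 and 1.31 with 6-shogaol, so that the treated libraries were lower without overlap. The size of this ratio also depends on the gene lengths behind FPKM. SEC24B, WLS and ATRN were closest to BSG in their centred log2 CPM (root-mean-square differences of 0.0189, 0.0207 and 0.0239).

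**Figure D2:**
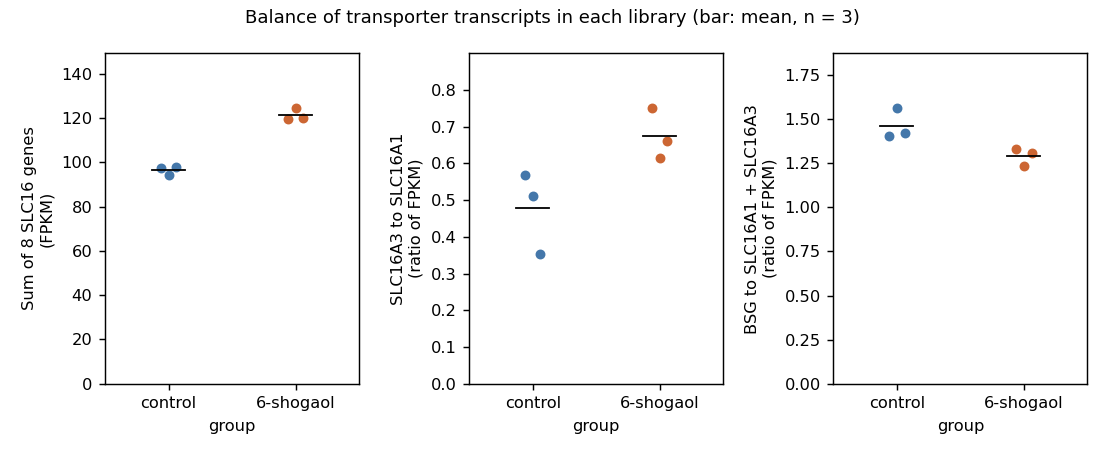
Sum of FPKM over the 8 SLC16 genes described (left), ratio of SLC16A3 to SLC16A1 (middle) and ratio of BSG to SLC16A1 plus SLC16A3 (right) in each library, with bars at the means of 3 libraries and axes from 0. The treated libraries were higher than all controls in the first 2 quantities, with sums of 119.4 to 124 against 94.3 to 97.8 FPKM, and lower in the last.

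Among the carriers of other substrates, SLC16A6 changed the most. SLC16A6 (ENSG00000108932, chromosome 17, 68267026 to 68291267) encodes MCT7, known from ketone body export by the liver. Its counts were 95, 80 and 63 in controls and 248, 243 and 208 with 6-shogaol, and its level 0.375, 0.278 and 0.219 against 0.932, 0.996 and 0.995 FPKM. The treated libraries lay close together and well above the controls, though the gene remained below 1 FPKM. SLC16A6 rose 3.29-fold (log2 fold change 1.72, SE 0.24, edgeR adjusted p = 0.0174). Of its exonic length 3.55% is shared with ARSG on the other strand, an arylsulfatase gene that missed the threshold (log2 fold change 0.35, edgeR adjusted p = 0.785). The pseudogene SLC16A6P1, a copy whose reads could be confused with those of SLC16A6, had 43, 38 and 0 counts in controls and 19, 8 and 26 counts with 6-shogaol.

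SLC16A9 (ENSG00000165449, chromosome 10, 59650761 to 59736002) encodes MCT9, a carrier linked to carnitine transport. It stood at 4.06, 4.25 and 3.96 FPKM in controls and at 6.20, 7.27 and 6.93 FPKM with 6-shogaol. Controls were within a narrow band and all treated libraries lay above it. SLC16A9 rose 1.64-fold (log2 fold change 0.71, SE 0.10, edgeR adjusted p = 0.0166). It shares no exonic base with another annotated gene that had a mean of at least 10 counts.

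SLC16A14 (ENSG00000163053, chromosome 2, 230034982 to 230068924) encodes MCT14, whose substrate is not well defined. Its level was 1.62, 1.73 and 1.58 FPKM in controls and 2.54, 2.40 and 2.47 FPKM with 6-shogaol, with no overlap. SLC16A14 rose 1.48-fold (log2 fold change 0.56, SE 0.10, edgeR adjusted p = 0.0345). The pseudogene SLC16A14P1 had no count in any library.

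SLC16A10 and SLC16A4 did not pass. SLC16A10 (ENSG00000112394, chromosome 6, 111087503 to 111231194) encodes TAT1, a carrier of aromatic amino acids, and was at 0.156, 0.200 and 0.201 FPKM in controls and at 0.137, 0.205 and 0.0981 FPKM with 6-shogaol. Treated replicate 2 was the highest and treated replicate 3 the lowest of the 6 libraries (log2 fold change -0.34, 95% interval -1.06 to 0.38). SLC16A4 (ENSG00000168679, chromosome 1, 110362851 to 110391082), which encodes MCT5, was at 0.309, 0.626 and 0.408 FPKM in controls and at 0.423, 0.423 and 0.406 FPKM with 6-shogaol. The controls lay on both sides of the treated libraries, control replicate 2 being the highest (log2 fold change -0.12, 95% interval -0.83 to 0.59). SLC16A4 shares 4.2% of its exonic length with LAMTOR5-AS1 on the other strand. That RNA averaged 1.79 CPM, against 1.64 for SLC16A4, and had a log2 fold change of -0.49 (edgeR adjusted p = 0.251). Counts were 58 to 162 for SLC16A10 and 61 to 140 for SLC16A4. These intervals span changes in both directions, so that a rise or a fall of either gene was neither shown nor excluded.

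Of the SLC16 genes outside the 9, SLC16A8 and SLC16A13 were tested here and did not pass. SLC16A13 averaged 2.92 ± 0.119 FPKM in controls and 3.96 ± 0.441 FPKM with 6-shogaol without overlap, and it missed the threshold (log2 fold change 0.42, edgeR adjusted p = 0.12). SLC16A8, the retinal carrier MCT3, averaged 0.559 ± 0.0695 and 0.491 ± 0.120 FPKM (log2 fold change -0.21, edgeR adjusted p = 0.736). SLC16A5, SLC16A11 and SLC16A12 had at most 8, 8 and 12 counts in a library and were not tested.

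**Figure D3:**
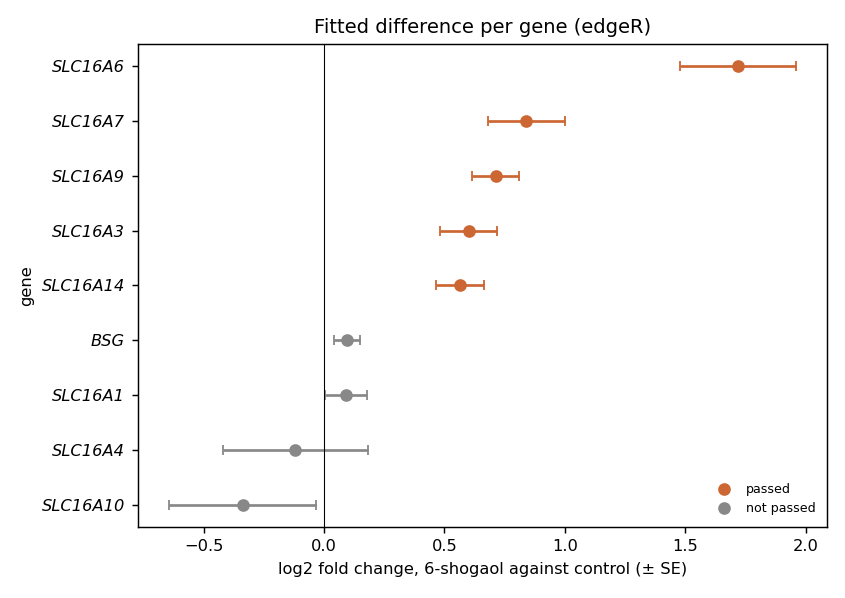
Fitted log2 fold change (horizontal axis, 6-shogaol against control, ± SE) of the 9 genes, orange where the gene passed the threshold. SLC16A6 lies highest at 1.72, SLC16A7, SLC16A9, SLC16A3 and SLC16A14 lie between 0.56 and 0.84, and BSG and SLC16A1 lie at 0.09.

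The genes that make, use or exchange the substrates of these carriers were read from fixed lists. The lists were chosen with earlier results known, so nothing is read from their counts. Over all 19279 tested genes, unadjusted p in edgeR was under 0.05 for 2014 higher and 1918 lower. EdgeR called 1.67% of them higher and 1.71% lower. Of 16 lactate and pyruvate genes 14 were tested and edgeR called 0 and DESeq2 0, and unadjusted p-values under 0.05 in edgeR numbered 2 higher and 1 lower (list median 0.06). PDK4, a kinase that shuts off pyruvate dehydrogenase, had a log2 fold change of 0.64, and PDP1, the opposing phosphatase, of 0.48 (edgeR adjusted p = 0.180 and 0.394). Of 19 glucose uptake and glycolysis genes edgeR called 0 as well (unadjusted p under 0.05 for 6 higher and 2 lower, list median 0.05), while DESeq2 called PFKP, PFKFB4 and PGK1 higher, enzymes of the glycolytic path or its control. DESeq2 called more genes than edgeR over all 19279 tested, 932 higher and 934 lower. ENO2, an enolase, had a value of 0.45, and HK2, which phosphorylates glucose, of -0.41 (edgeR adjusted p = 0.491 and 0.150).

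Genes that regulate pH held 2 rises. Of 10 such genes 9 were tested, and CA9 and SLC4A7 rose (list median 0.15), against 1.67% of all tested genes called higher. CA9, the extracellular carbonic anhydrase that hydrates carbon dioxide at the cell surface, was at 25.2, 24.1 and 24.7 FPKM in controls and at 60.5, 53.4 and 52.5 FPKM with 6-shogaol (log2 fold change 1.15, SE 0.07, edgeR adjusted p = 0.00209), with 38.5% of its exonic length shared with ARHGEF39, which had a log2 fold change of 0.18. SLC4A7, a sodium bicarbonate cotransporter, rose from 13.2 ± 0.200 to 19.0 ± 1.07 FPKM (log2 fold change 0.50, edgeR adjusted p = 0.0184). Without 6-shogaol replicate 1 SLC4A7 was still called, and it was not called without any other single library.

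Genes that handle aromatic amino acids, the substrates of SLC16A10, and thyroid hormones went both ways. Of 8 genes 6 were tested, 2 rose and 2 fell (list median 0.37), against 1.67% higher and 1.71% lower of all tested genes. SLC7A5 and SLC3A2, the light and heavy chains of the large neutral amino acid exchanger LAT1, rose from 87.8 ± 2.31 to 144 ± 5.01 FPKM and from 35.8 ± 2.71 to 57.8 ± 1.30 FPKM (log2 fold changes 0.69 and 0.67, edgeR adjusted p = 0.00604 and 0.00828). DIO2, the deiodinase that activates thyroxine, fell from 5.11 ± 0.257 to 3.41 ± 0.250 FPKM (log2 fold change -0.61, edgeR adjusted p = 0.0227). THRA, a nuclear thyroid hormone receptor, fell from 15.1 ± 0.524 to 12.1 ± 0.475 FPKM (log2 fold change -0.34, edgeR adjusted p = 0.0351). It shares 3.78% of its exonic length with NR1D1 on the other strand, which rose (log2 fold change 0.76, edgeR adjusted p = 0.00635). DIO2 and THRA were each called in 1 of the 6 fits without 1 library, that without 6-shogaol replicate 1.

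Ketone body, carnitine and basigin partner genes gave no call in edgeR. For comparison, unadjusted p was under 0.05 for 2014 higher and 1918 lower of all 19279 tested genes. DESeq2 called 0 ketone body and 0 carnitine genes. Of 6 ketone body genes 5 were tested, unadjusted p was under 0.05 for 1 higher and 2 lower, and BDH2 and OXCT1 had log2 fold changes of -0.34 and -0.31 (list median -0.16). Of 7 carnitine genes unadjusted p was under 0.05 for 1 higher and 0 lower, and SLC25A20 and CPT1A had values of 0.24 and 0.20 (list median -0.04). Of 9 basigin partners 8 were tested, and unadjusted p was under 0.05 for 2 higher and 2 lower (list median 0.03). MMP2, a matrix protease, had a value of -0.43 and ITGA3, an integrin chain, of 0.38 (edgeR adjusted p = 0.0538 and 0.0607). DESeq2 called MMP2 lower and ITGA3 higher, against 934 lower and 932 higher of all 19279 tested genes in DESeq2. NPTN, a glycoprotein related to basigin, stood at 15.2 ± 0.163 and 15.5 ± 0.355 FPKM, and of the sodium-coupled carriers SLC5A12 had no count and SLC5A8 had 4 counts in 1 library.

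Of 10 regulators known to act on SLC16 genes 9 were tested and 2 rose (list median 0.36), against 1.67% of all tested genes called higher. EPAS1, the hypoxia-inducible factor HIF-2α, stood at 3.4, 3.45 and 3.58 FPKM in controls and at 6.70, 7.10 and 6.99 FPKM with 6-shogaol (log2 fold change 0.97, SE 0.07, edgeR adjusted p = 0.00358). PPARGC1A, a coactivator of mitochondrial biogenesis, rose from 0.148 ± 0.00652 to 0.302 ± 0.0347 FPKM (log2 fold change 0.99, edgeR adjusted p = 0.0351), a call lost in each fit without 1 library. MYC, which can activate SLC16A1, stood at 2.38, 3.49 and 2.0 FPKM in controls and at 4.68, 4.83 and 4.02 FPKM with 6-shogaol and passed in DESeq2 only (log2 fold change in edgeR 0.76, edgeR adjusted p = 0.104). DESeq2 called 932 of 19279 tested genes higher. HIF1A, chosen after its value was seen as the usual regulator of SLC16A3, had a log2 fold change of 0.14 (edgeR adjusted p = 0.307).

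**Figure D4:**
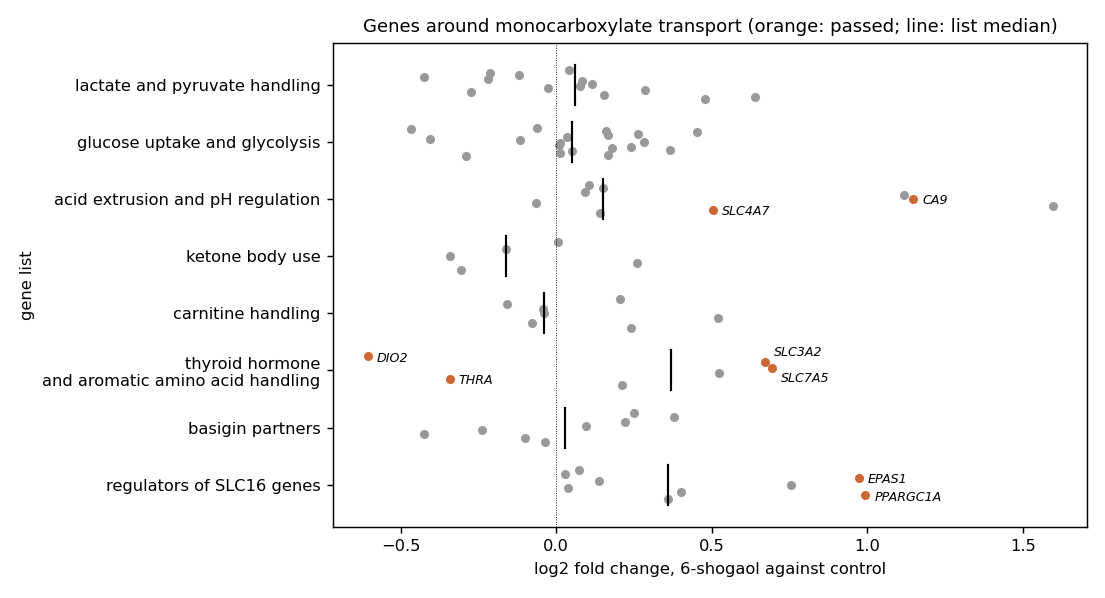
Log2 fold change (horizontal axis, 6-shogaol against control) of each tested gene in 8 lists around monocarboxylate transport, orange and named where the gene passed the threshold, with a line at each list's median. Passing genes lay in 3 of the lists, with CA9 at 1.15 the highest of them and DIO2 at -0.61 the lowest.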

How the data were processed

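RNA sequencing libraries of U251 cells, 3 controls and 3 treated with 6-shogaol, were compared, grouped by their titles. The authors deposited raw counts per gene and, per the file headers, FPKM values with an identical copy of the counts. The aligner, counting tool and strand setting are not given in the sources used here. The submitters' processing notes name the mouse builds GRCm38 and mm10, but all 60612 identifiers are human. Coordinates are those of the deposited table, and exon overlap came from GENCODE 29, with only genes at a mean of at least 10 counts considered. Counts were tested with edgeR 4.0.16 in R 4.3.3 (filterByExpr, TMM, glmQLFTest, Benjamini-Hochberg). SE is the absolute log2 fold change over the square root of F, and intervals are at 95%. DESeq2 1.42.0, limma 3.58.1 on log2(FPKM + 1) or log2(FPKM + 0.1), other filters and scalings, a replicate block and leaving out each library were alternatives. The scripts were tested on simulated data. The members and lists were chosen with earlier results of these data known. All members were named, with called genes of each list and the 2 largest changes at a mean of at least 5 CPM. Motifs were chosen after the values were seen. A result of the fixed lists is not reported here.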

Additional observations from a re-analysis of the deposited data

How the results depend on the processing

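With all 6 libraries 5 of the 9 genes and 651 of all tested genes passed. RLE and upper-quartile scaling, DESeq2 and the filter of 1 CPM in 3 libraries also called 5 of the 9, all higher, although DESeq2 called 1866 genes in all. With no filter 2 of the 9 and 378 genes passed over a larger number of tests. Limma on FPKM called 3 of the 5 that kept an FPKM of at least 1 in 3 libraries with a pseudocount of 1, 2 of the 5 with 0.1, and 3 of the 9 with no filter. Fits without 1 library called 0 to 4 of the 9 and 98 to 1012 genes, with the highest counts without 6-shogaol replicate 1; such fits have fewer degrees of freedom. With the replicate number as a block 0 of the 9 genes and 3 genes in all passed. Deviations from the group means in same-numbered libraries had correlations across genes of -0.03, 0.06 and -0.04 for numbers 1, 2 and 3. Other pairs ran from -0.06 to 0.09. With 3 libraries per group these values cannot decide whether same-numbered libraries shared a batch, and the labels do not say. The sign of each of the 5 called genes was the same under every alternative run. Values that changed sign belonged to uncalled genes: NPTN had -0.0015 with upper-quartile scaling, and over the fits without 1 library SLC16A4 ran from -0.33 to 0.20, NPTN from -0.020 to 0.041 and SLC16A1-AS1 from -0.14 to 0.085. For these sign changes the cause was not tested. For a gene without counts the upper limit, at 3 counts, was 0.05 to 0.0689 CPM, depending on the library, for counting error only.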

Other observations

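The enzymes that interconvert the main substrates of these carriers stood at very different levels; they were picked after their values were seen. LDHA, the lactate dehydrogenase chain typical of glycolytic tissue, was at 5.23, 4.93 and 5.87 FPKM in controls and at 4.72, 4.55 and 4.78 FPKM with 6-shogaol. LDHB, the chain typical of heart, was at 147, 123 and 134 FPKM in controls and at 127, 113 and 137 FPKM with 6-shogaol. The ratio of LDHA to LDHB was 0.0398 ± 0.00402 in controls and 0.0373 ± 0.00268 with 6-shogaol (n = 3), and neither gene passed (log2 fold changes -0.21 and -0.12, edgeR adjusted p = 0.221 and 0.541). LDHA has pseudogene copies, and how reads shared between copies were counted is not given in the sources used here.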
